A study of Mustela putorius furo with 9 samples.

Results

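The ubiquitin-specific proteases (USPs) are the largest family of deubiquitinating enzymes, and their genes were taken here as every row of the expression table whose symbol begins with USP and a digit. This gave 49 of the 28494 genes listed. RNA sequencing had been done on 9 libraries of NBL-7, described by the submitters as an epithelial line from ferret lung, with 3 libraries in each of 3 groups; mink is the species to which the name NBL-7 is also given, and the species was not tested here. By their treatment labels, the Ep1 libraries had no treatment, the Ep2 libraries had particulate matter at 250 µg/mL and the libraries titled PBS1 had it at 500 µg/mL. PBS usually means a buffer used as a vehicle, so title and treatment label do not agree in kind for that group, and it is called PBS1 below. No genotype change, exposure time or passage is given, all groups share 1 cell line grown in the same medium, and whether the libraries within a group were separate cultures is not stated, so p-values reflect library-to-library variation that may be technical.

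Ubiquitin is a small protein that is joined to other proteins singly or in chains, and it marks them for the proteasome, for sorting in endosomes or for signalling at chromatin. USPs are cysteine proteases that cut ubiquitin off again, so they can rescue a substrate, edit a chain or return free ubiquitin to the cell. The roles given for single genes below come from work on human and mouse cells. The symbol rule also takes in USP6NL, which is no protease but an activator of the GTPase activity of RAB5, and USP39 and USP50, which lack residues needed for catalysis. CYLD, which has the USP fold under another symbol, is not taken in.

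Values are FPKM, fragments scaled to the length of the gene and to the size of the library, and libraries held 12469849 to 13533480 fragments. The tests, by limma on log2(FPKM + 1) with Benjamini-Hochberg adjustment, covered the 11840 genes that reached 1 FPKM in 3 or more libraries. A gene is called where its adjusted p is below 0.05, and each difference or fold refers to log2(FPKM + 1), a scale on which changes of low genes look smaller than they are. Correlations of log2 values across genes were 0.994 to 0.995 between PBS1 libraries, 0.990 to 0.994 between Ep1 libraries and 0.991 to 0.994 between Ep2 libraries. Library Ep1_1 stood apart from its group, with correlations of 0.992, 0.993 and 0.994 to the 3 PBS1 columns, which were above those of Ep1_2 and Ep1_3 to the same columns, and results are given without it where that matters. Library Ep2_1 correlated with Ep1_3 at 0.9916, beside 0.9915 with Ep2_2 and 0.9923 with Ep2_3. Of 6 epithelial markers, KRT8 and KRT19 were tested, EPCAM was listed at 0 in every library and CDH1 averaged 0.087 FPKM in PBS1, so these defining genes were at or near 0. The summed level of the 6 was 412 to 459 FPKM in PBS1, 322 to 419 FPKM in Ep1 and 297 to 315 FPKM in Ep2. Fibroblast markers summed to at most 3.73 FPKM and leukocyte markers to at most 2.77 FPKM in any library, with PTPRC, DCN and LUM at or near 0. Of 6 lung epithelium markers, which summed to 14.8 to 15.6 FPKM in PBS1, 12.9 to 16.2 FPKM in Ep1 and 8.11 to 11.4 FPKM in Ep2, only NKX2-1, a lung transcription factor, was tested, and SFTPC and AQP5 were listed at 0. NKX2-1 was lower in Ep2 than in Ep1 (-0.58, adjusted p = 0.00667) and higher in PBS1 than in Ep2 (0.63, adjusted p = 0.00122). KRT8 was also lower in Ep2 than in Ep1 (-0.37, adjusted p = 0.0128), and KRT8 and KRT19 were higher in PBS1 than in Ep2 (0.36 and 0.64). The 5 endothelium markers, mostly TEK, summed to 15.6 to 17.7 FPKM in PBS1, 11.99 to 13.0 FPKM in Ep1 and 13.9 to 16.0 FPKM in Ep2, with CDH5 at 0. TEK was higher in Ep2 than in Ep1 (0.26, adjusted p = 0.0245). Its PBS1 minus Ep1 difference was larger but not called (0.38, adjusted p = 0.0606). The part of these markers in the results below was not tested, and in bulk RNA fewer cells of a kind and less RNA per cell cannot be told apart.

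USP genes were widely expressed in these cells. Of the 49, 7 averaged above 50 FPKM over the 9 libraries, 11 lay between 20 and 50 FPKM, 18 between 5 and 20 FPKM, 10 between 1 and 5 FPKM and 3 below 1 FPKM. The highest was USP7, which trims ubiquitin from the p53 ligase MDM2 and from p53 itself, with a mean of 71.6 FPKM. It was followed by USP5 (59.8 FPKM), USP14 (55.2 FPKM), USP16 (54.7 FPKM), USP9X (54.3 FPKM), USP39 (51.9 FPKM) and USP10 (51.6 FPKM). USP7 lay above USP39 and USP10 in every library, while the ranges over libraries of neighbours in this order overlapped. The 46 tested genes had means above 1 FPKM. The untested ones were USP51, a relative of the histone deubiquitinase USP22, at 0.410 to 0.825 FPKM, USP26, with at most 1 fragment in a library, and USP50, listed at 0 in all 9, which allows a level of up to 0.0863 FPKM (3 fragments, counting error only).

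**Figure D1:**
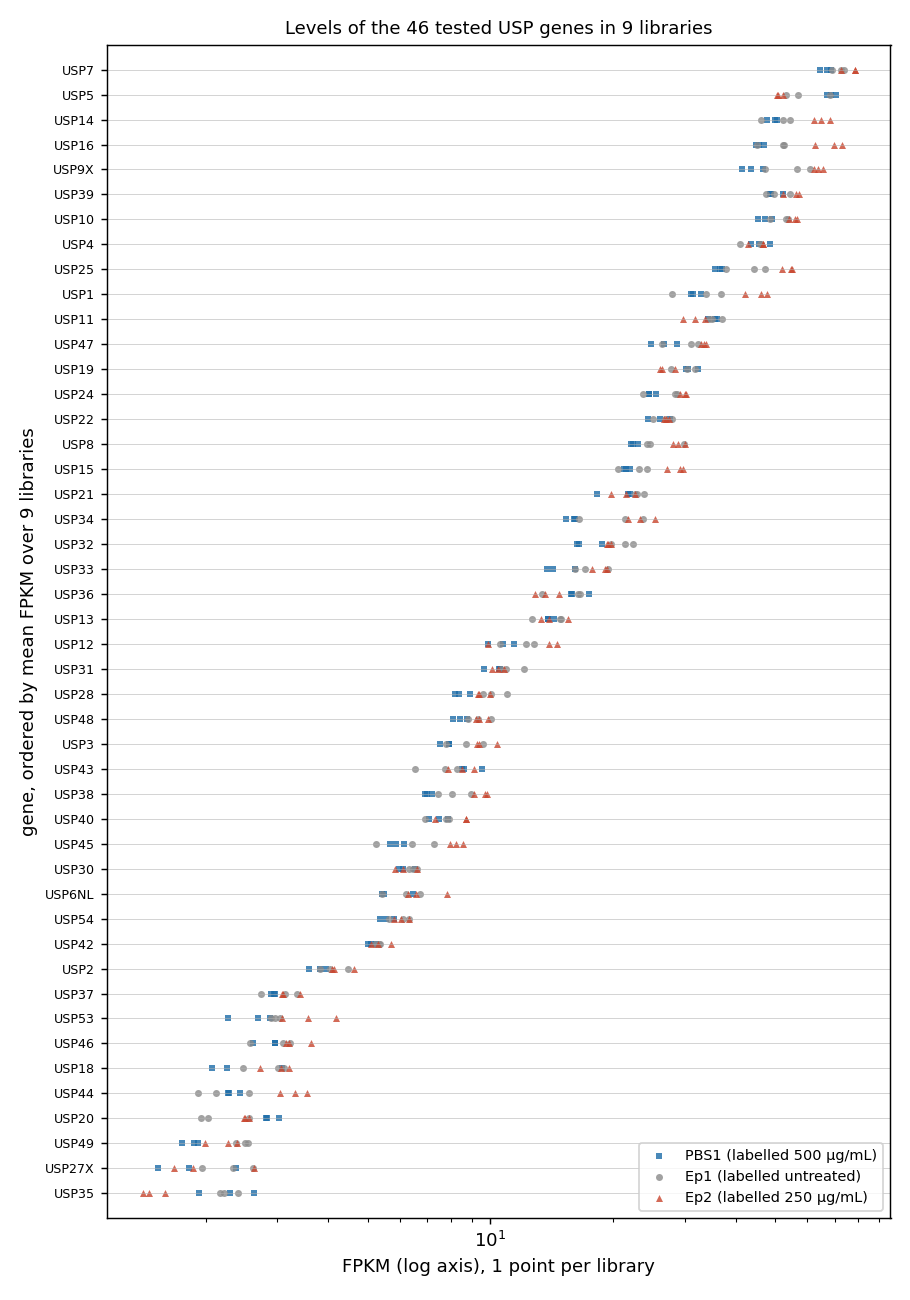
FPKM of each of the 46 tested USP genes (rows, ordered by mean level) in 9 libraries on a log axis, with 1 point per library: squares for PBS1, circles for Ep1 and triangles for Ep2. USP7 is the top row, with a mean of 71.6 FPKM, and for most genes the points of the 3 groups lie close together compared with the spread between genes.

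Across the 3 groups, the limma F-test called 21 of the 46 tested USP genes, which is 45.7% of them, beside 45.4% of all tested genes. The family share was thus near the background, and the count was 13 without the column PBS2 or without Ep2_2. No F-test share of all genes is given for those fits. For PBS1 against Ep2, the share of all tested genes called fell as well. It went from 49.6% to 38.2% without column PBS2 and to 39.9% without Ep2_2. What the libraries differed in was the direction. The summed level of the 49 genes was 888 to 904 FPKM in PBS1, 910 to 976 FPKM in Ep1 and 1003 to 1064 FPKM in Ep2. The groups did not overlap, though Ep1_1, at 910 FPKM, lay next to PBS1. No background over all tested genes was computed for this sum, in which the highest genes weigh most. Means ran in the order PBS1, Ep1, Ep2 from low to high for 30 of the 46 genes (65.2%), an order found in 29.9% of all tested genes, and in the reverse order for 4 (8.70%), beside 30.9% of all. Neither the sums nor these orders were adjusted for gene length, which is taken up below. The tested USP genes had a median length of 4627 bases, beside 2818 bases over all tested genes. Within Ep1, library Ep1_1 was the lowest of the 3 for 31 of the 46 genes, whereas it was the lowest for 39.2% of all tested genes.

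**Figure D2:**
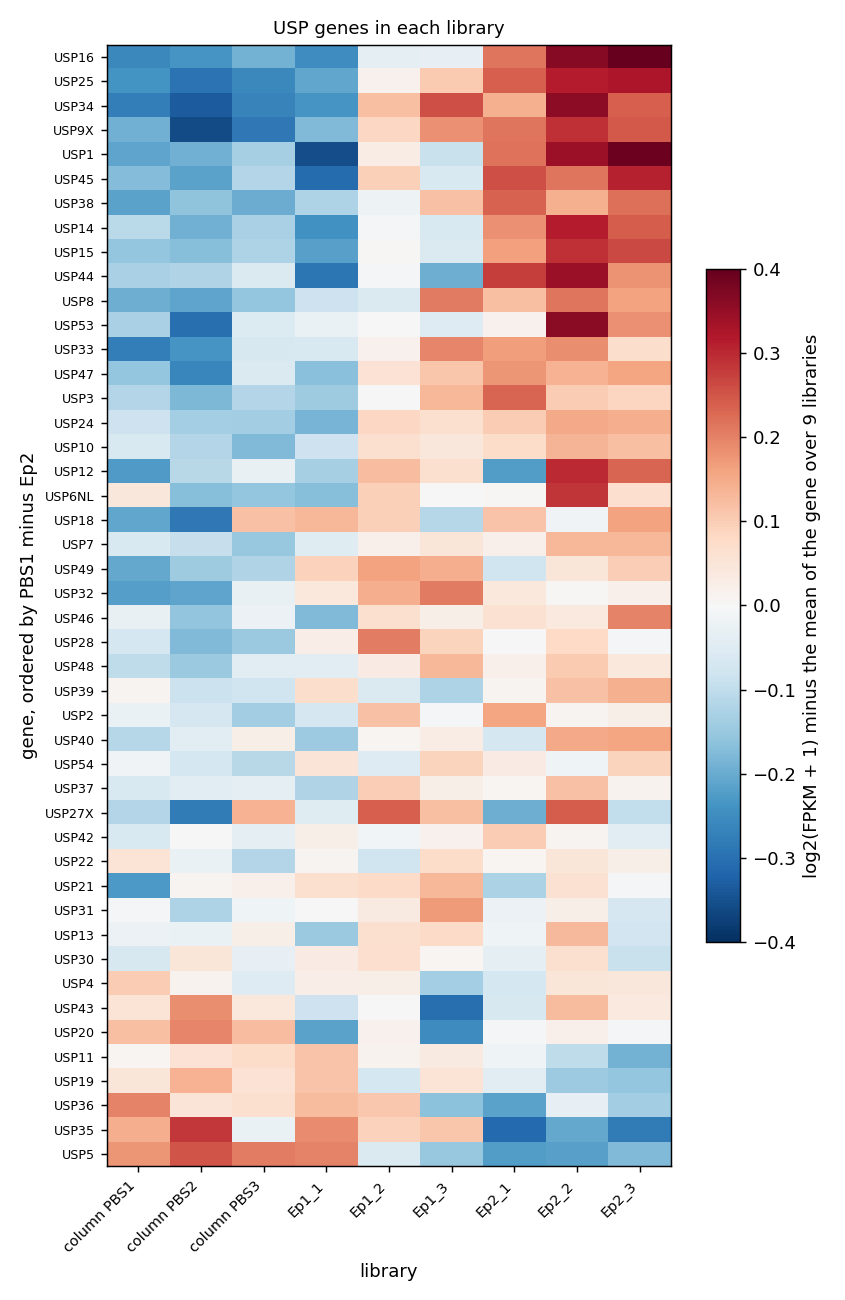
Deviation of log2(FPKM + 1) from the mean of each gene over 9 libraries, with the 46 tested USP genes in rows and the libraries in columns (red above, blue below the mean; colours stop at 0.4, which 1 of 414 values passes). Upper rows are blue in the PBS1 columns and in Ep1_1 and red in the Ep2 columns, while the lowest rows (USP5, USP35, USP36 and USP19) mostly show the opposite.

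The widest contrast was PBS1 against Ep2. Of the 46 genes, 18 were called lower in PBS1 (39.1%), beside 24.2% of all tested genes, and 4 were called higher (8.70%), beside 25.4%. In either direction, 22 were called (47.8%), beside 49.6%. The genes called lower were USP16, USP25, USP34, USP9X, USP1, USP45, USP38, USP14, USP15, USP44, USP8, USP53, USP33, USP47, USP3, USP24, USP10 and USP7; those called higher were USP5, USP35, USP36 and USP19. The median log2 difference of PBS1 minus Ep2 was -0.17 over the USP genes, from -0.56 to 0.42, and 0.002 over all tested genes. Folds of the called genes were all below 1.5. Each call of USP16, USP25, USP34, USP9X, USP1, USP45, USP38, USP14, USP15, USP44, USP8, USP33, USP47, USP10, USP5 and USP35, 16 of the 22, was kept in all alternatives it was tested in.

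For Ep2 against Ep1, 8 USP genes were called (17.4%), beside 27.4% of all tested genes. Of these, USP1, USP16, USP44, USP14, USP45, USP15 and USP25 were higher in Ep2, 7 of 46 (15.2%) beside 13.4% of all, and USP35 was lower, 1 of 46 (2.17%) beside 14.0% of all. The median log2 difference was 0.09 over the USP genes and -0.004 over all. This count changed with single libraries, as did that of all genes. It was 13 without Ep1_3, beside 28.5% of all tested genes, and 5 without Ep2_3, beside 10.7%. Without Ep1_1 it was 6, each higher in Ep2, beside 15.6%. For PBS1 against Ep1, limma called 0 of the 46 genes, beside 0.144% of all tested genes (0.0760% higher and 0.0676% lower in PBS1); 12 had an unadjusted p under 0.05, as had 2648 of all genes, and limma voom on recovered fragments called 5, each lower in PBS1, beside 4.43% of all genes. Without Ep1_1, 10 were called (1 higher and 9 lower in PBS1), beside 16.02% of all tested genes. The median log2 difference of this contrast was -0.09 over the USP genes. Groups without overlap were common over all tested genes. For PBS1 against Ep2 the libraries did not overlap for 31 of the 46 USP genes (67.4%), beside 60.3% of all. For Ep2 against Ep1 it was 18 (39.1%), beside 42.8%, and for PBS1 against Ep1 16 (34.8%), beside 23.7%. Some genes named below were chosen for not overlapping, so their separation adds no support. Each pair of comparisons shares the libraries of 1 group, so they are not independent of each other.

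**Figure D3:**
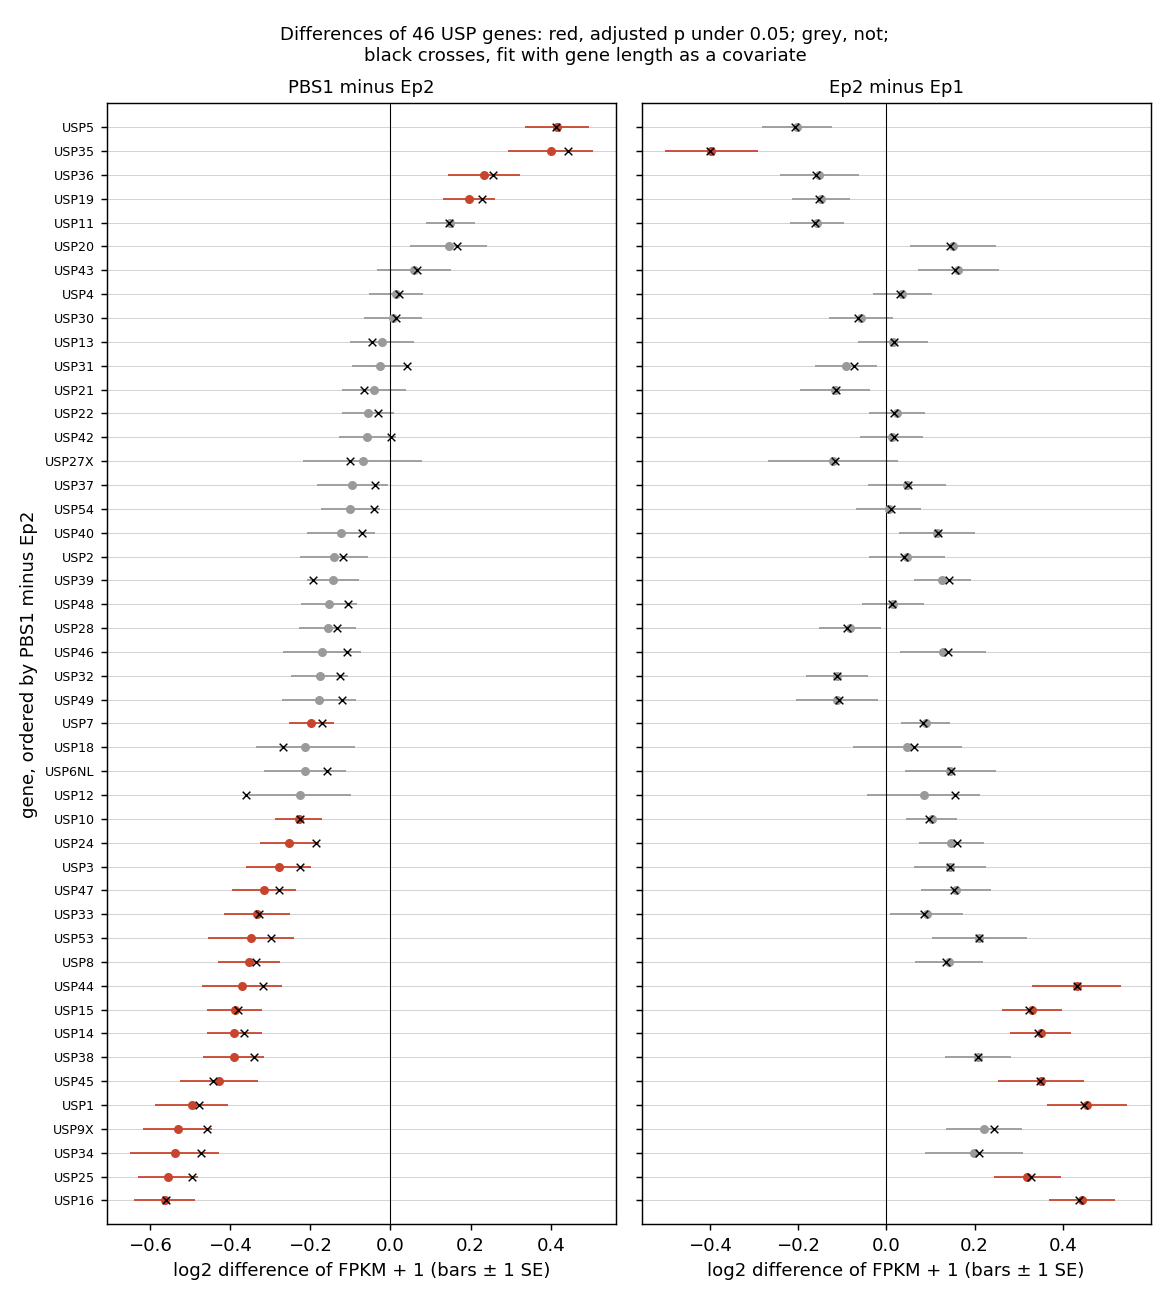
Log2 difference of FPKM + 1 with bars of ± 1 SE for the 46 tested USP genes, for PBS1 minus Ep2 (left) and Ep2 minus Ep1 (right); red marks an adjusted p under 0.05 and black crosses the values from the fit with gene length as a covariate. On the left, 18 red points lie below 0 and 4 above it; on the right, 7 lie above 0 and 1 (USP35) below.

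USP genes are long, and gene length therefore entered a second fit. The 46 tested genes had a median length of 4627 bases, beside 2818 bases over all tested genes, and 45 of them were longer than 2000 bases, against 65.7% of all. Over all tested genes, the slope per doubling of length on the log2 scale was -0.05 for PBS1 minus Ep2, -0.03 for PBS1 minus Ep1 and 0.02 for Ep2 minus Ep1. Among genes of up to 1000 bases, the median deviation from the mean of the gene was between 0.05 and 0.09 in the PBS1 libraries and between -0.07 and -0.03 in the Ep2 libraries. Above 8000 bases it was between -0.08 and -0.04 in PBS1 and between 0.02 and 0.04 in Ep2. Library Ep1_1 had 0.07 in the short class and -0.05 in the long class, which are values of the PBS1 range, whereas Ep1_2 and Ep1_3 had -0.04 and -0.03 in the short class and 0.05 and 0.08 in the long class.

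With the length trend of each library removed, 23 USP genes were called for PBS1 against Ep2 of 46, beside 49.9% of all tested genes; 19 were lower and 4 higher in PBS1, beside 26.4% and 23.5%. The added gene was USP39. The median log2 difference was -0.13 in place of -0.17, and for PBS1 minus Ep1 it was -0.05 in place of -0.09. For Ep2 against Ep1 it called 10 (21.7%), beside 28.5% of all, with 9 higher and 1 lower in Ep2, beside 15.3% and 13.2%. The added genes were USP9X (adjusted p = 0.0188) and USP38 (0.0458). This count was 6 without Ep1_1, Ep2_2 or Ep2_3, beside 13.0% to 16.2% of all tested genes. The share of all genes called thus fell as well. For PBS1 against Ep1 limma with the covariate called 0, beside 0.329% of all (0.160% higher and 0.169% lower in PBS1), and 7 without Ep1_1, beside 13.0% of all; 13 had an unadjusted p under 0.05, as had 2575 of all genes. Of the longest members, USP9X (13188 bases) moved from -0.53 to -0.46 for PBS1 minus Ep2, USP24 (10595 bases) from -0.25 to -0.19, USP34 (10470 bases) from -0.54 to -0.47 and USP25 (9210 bases) from -0.56 to -0.49. USP31, at 11764 bases, measured -0.03 without the covariate and 0.04 with it and was called in neither fit. The shortest member was USP12, at 686 bases, which moved from -0.23 to -0.36 and was not called (adjusted p = 0.0581 with the covariate). Across the 46 genes, log2 length and PBS1 minus Ep2 had a Pearson correlation of -0.18 and a Spearman correlation of -0.21; the genes share all libraries and are not independent.

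**Figure D4:**
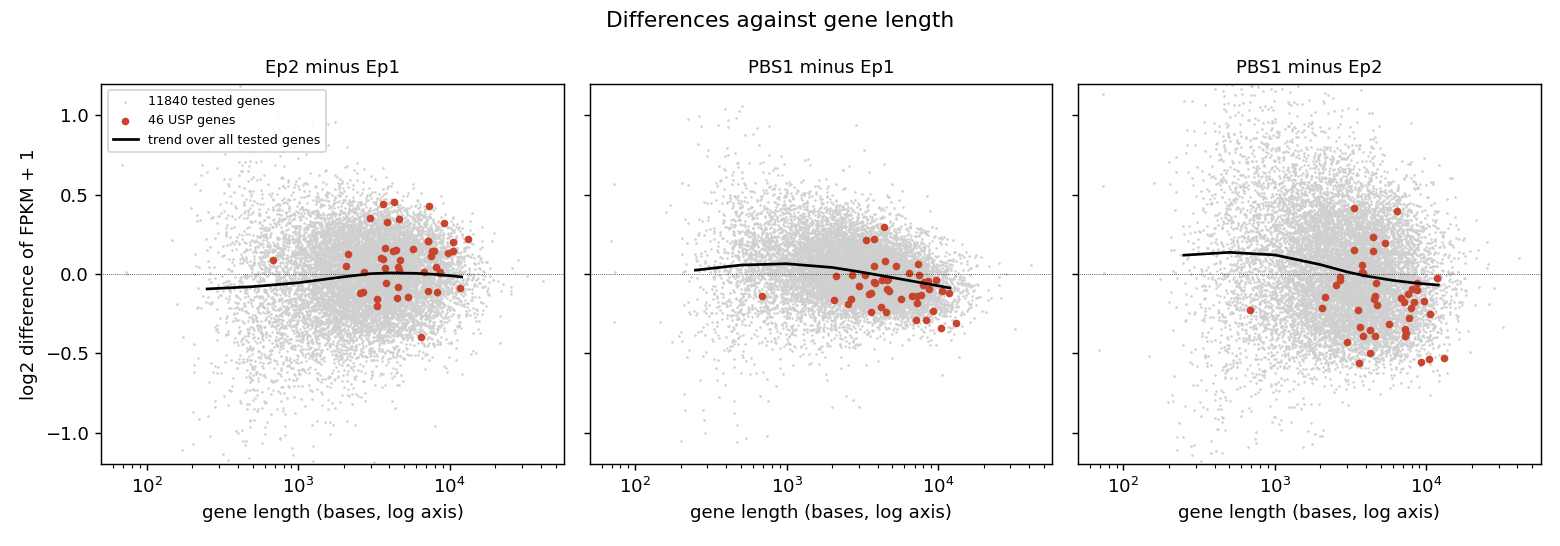
Log2 difference of FPKM + 1 against gene length in bases (log axis) for the 3 comparisons, with all 11840 tested genes in grey, the 46 USP genes in red and the trend over all tested genes as a line. For PBS1 minus Ep2 the line runs from 0.12 at 1000 bases to -0.05 at 8000 bases and most red points lie below it; 19, 2 and 77 grey points of the 3 panels lie outside the axis.

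Of the USPs that act on histones, USP16, USP44 and USP3 were called for PBS1 minus Ep2. USP16 removes ubiquitin from histone H2A and is needed for cells to enter mitosis. It measured 44.8, 45.6 and 47.1 FPKM in the PBS1 columns, 45.1, 52.4 and 52.6 FPKM in Ep1 and 62.5, 69.6 and 72.8 FPKM in Ep2. All Ep2 libraries lay above all others, and PBS1 overlapped with Ep1 through Ep1_1. The log2 difference was -0.56 (SE 0.08, adjusted p = 0.000481) for PBS1 minus Ep2 and 0.44 (SE 0.08, adjusted p = 0.00489) for Ep2 minus Ep1. Length as a covariate left both values unchanged to 2 decimals. USP44, which acts on H2B and on the mitotic checkpoint, measured 2.26, 2.28 and 2.43 FPKM in PBS1, 1.92, 2.55 and 2.12 FPKM in Ep1 and 3.32, 3.54 and 3.04 FPKM in Ep2, again with Ep2 above all others. Its gene overlaps METAP2 on the opposite strand, at a mean of 149 FPKM. Overlaps, here and below, are of whole gene spans, and shared exons were not examined. The strand setting of the counting is not given in the sources used here, so whether METAP2 reads were counted for USP44 is not known. The call of USP44 for Ep2 minus Ep1 (0.43, SE 0.10, adjusted p = 0.0129) was lost without Ep2_2 and without both Ep1_1 and Ep2_1 (highest adjusted p 0.0557).

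USP22, the catalytic subunit of the SAGA coactivator that clears ubiquitin from H2B, measured 24.4 to 28.0 FPKM in all 9 libraries, and its groups overlapped in each comparison. Its log2 difference was -0.06 (SE 0.06, adjusted p = 0.492) for PBS1 minus Ep2. USP27X, a close relative that can take its place with the same adaptors, was much lower at 1.53 to 2.63 FPKM. USP3, which acts on H2A and H2B, was called lower in PBS1 than in Ep2 (-0.28, SE 0.08, adjusted p = 0.0161), a call lost without column PBS2 or Ep2_1. USP21 and USP49 were not called, with -0.04 (SE 0.08) and -0.18 (SE 0.09). In all, 3 of the 7 tested histone deubiquitinases fell and 0 rose for PBS1 minus Ep2, beside 24.2% and 25.4% of all tested genes, and 2 rose and 0 fell for Ep2 minus Ep1, beside 13.4% and 14.0% of all genes.

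Of the 7 USPs listed for DNA damage and replication, 4 fell in PBS1 relative to Ep2 and 0 rose, beside 24.2% and 25.4% of all tested genes. USP1, which with its cofactor UAF1 removes ubiquitin from FANCD2 and PCNA during DNA repair, measured 31.1, 31.5 and 32.8 FPKM in PBS1, 28.0, 36.9 and 33.9 FPKM in Ep1 and 42.1, 46.1 and 47.7 FPKM in Ep2. Every Ep2 library was higher than every other library, and the lowest value of all was that of Ep1_1. Its difference was 0.46 (SE 0.09, adjusted p = 0.00777) for Ep2 minus Ep1, and PBS1 minus Ep2 was -0.50 (SE 0.09, adjusted p = 0.00164). WDR48, the gene of UAF1, averaged 12.6, 13.6 and 13.1 FPKM in PBS1, Ep1 and Ep2 and was called in no comparison. USP12 and USP46, which also work with UAF1, averaged 11.8 and 3.05 FPKM over all libraries and were not called either.

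USP45, which acts on the repair nuclease subunit ERCC1, measured 5.86, 5.67 and 6.13 FPKM in PBS1, 5.25, 7.27 and 6.42 FPKM in Ep1 and 8.24, 7.98 and 8.58 FPKM in Ep2. Its log2 difference was -0.43 (SE 0.10, adjusted p = 0.00474) for PBS1 minus Ep2; its call for Ep2 minus Ep1 (0.35, SE 0.10, adjusted p = 0.0240) was lost without Ep1_1, Ep2_2 or Ep2_3, with no filter on low values and with only the 6 libraries compared. USP47, which acts on DNA polymerase beta, was called for PBS1 minus Ep2 (-0.31, SE 0.08, adjusted p = 0.00832). USP11, linked to BRCA2, and USP28, linked to 53BP1 and MYC, were not, with 0.15 (SE 0.06) and -0.16 (SE 0.07). USP37, which acts on cyclin A, was at 2.74 to 3.41 FPKM and not called.

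Among USPs of the p53 axis, USP7 measured 68.5, 66.9 and 64.3 FPKM in PBS1, 69.1, 72.5 and 73.9 FPKM in Ep1 and 72.5, 78.5 and 78.5 FPKM in Ep2. PBS1 lay below both other groups, while Ep1 and Ep2 overlapped. The PBS1 minus Ep2 difference was small, at -0.20 (SE 0.06, adjusted p = 0.0135), and its call was lost without Ep2_2 or Ep2_3. USP10, which acts on p53 in the cytoplasm and binds the stress granule protein G3BP1, differed by -0.23 (SE 0.06, adjusted p = 0.00856), and USP42 was not called (-0.06, SE 0.07). G3BP1 averaged 53.2 FPKM in PBS1 and 64.6 FPKM in Ep2 (-0.28, SE 0.07, adjusted p = 0.00864).

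Of the 3 USPs listed for the proteasome and free ubiquitin chains, 1 rose and 1 fell in PBS1 relative to Ep2, beside 25.4% and 24.2% of all tested genes. USP5, which cuts free ubiquitin chains into single units, measured 67.1, 70.7 and 68.4 FPKM in PBS1, 68.1, 56.9 and 53.2 FPKM in Ep1 and 50.6, 50.8 and 52.4 FPKM in Ep2. Ep1_1 lay within the PBS1 values and the other Ep1 libraries nearer to Ep2. Its PBS1 minus Ep2 difference was 0.42 (SE 0.08, adjusted p = 0.00207), and its Ep2 minus Ep1 difference of -0.20 (SE 0.08, adjusted p = 0.0814) was called without Ep1_3, with quantile normalization and with voom. USP14, which sits on the proteasome and trims chains from arriving substrates, measured 50.7, 47.7 and 49.9 FPKM in PBS1, 46.1, 54.3 and 52.4 FPKM in Ep1 and 62.3, 68.2 and 64.8 FPKM in Ep2. Here Ep2 stood above all other libraries, with -0.39 (SE 0.07, adjusted p = 0.00136) for PBS1 minus Ep2 and 0.35 (SE 0.07, adjusted p = 0.00732) for Ep2 minus Ep1. USP14 overlaps THOC1 on the opposite strand, at a mean of 19.5 FPKM. USP13, the paralogue of USP5, lay between 12.6 and 15.5 FPKM throughout and differed by -0.02 (SE 0.08, adjusted p = 0.841).

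**Figure D5:**
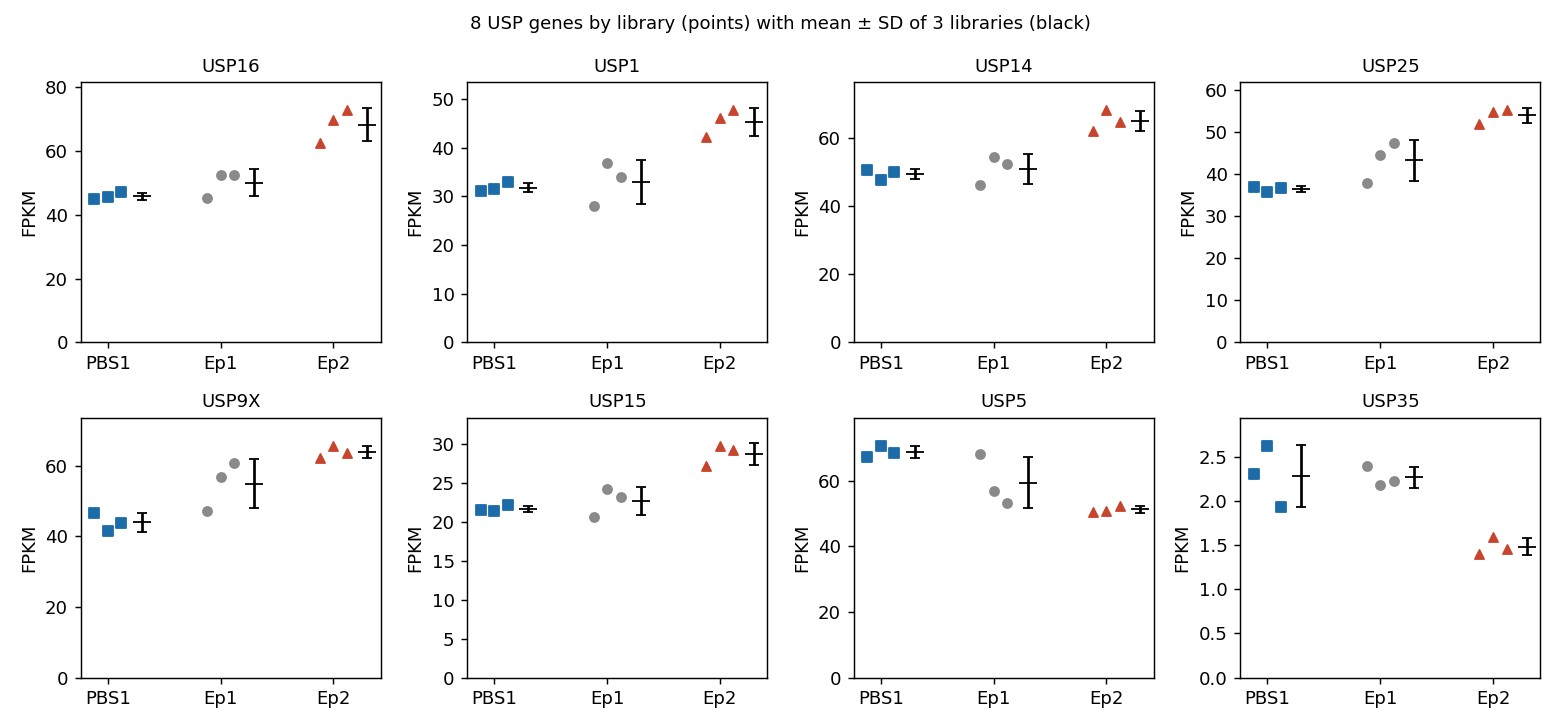
FPKM in each library (points) and mean ± SD of 3 libraries (black) for 8 USP genes in the groups PBS1, Ep1 and Ep2, with each axis starting at 0. For USP16, USP1, USP14, USP25, USP9X and USP15 all Ep2 points lie above all PBS1 and Ep1 points, for USP35 they lie below, and for USP5 the Ep1 points spread from 53.2 to 68.1 FPKM. Of all tested genes, 42.8% did not overlap between Ep2 and Ep1 and 60.3% between PBS1 and Ep2.

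Of the 4 USPs tied to TGF-beta and Wnt signalling, 3 fell in PBS1 relative to Ep2 and 0 rose, beside 24.2% and 25.4% of all tested genes. USP9X, which acts on SMAD4 and on the survival factor MCL1, measured 46.7, 41.5 and 43.7 FPKM in PBS1, 47.3, 56.7 and 60.8 FPKM in Ep1 and 62.2, 65.7 and 63.7 FPKM in Ep2. The 3 groups did not overlap, though Ep1_1 lay next to PBS1. Its PBS1 minus Ep2 difference was -0.53 (SE 0.09, adjusted p = 0.000957). Ep2 minus Ep1 was 0.22 (SE 0.09, adjusted p = 0.0760), and 0.24 (adjusted p = 0.0188) with length as a covariate. USP9X overlaps MED14 on the opposite strand, at a mean of 34.0 FPKM. USP34, which acts on axin, measured 16.03, 15.4 and 16.1 FPKM in PBS1, 16.5, 21.4 and 23.7 FPKM in Ep1 and 21.7, 25.4 and 23.3 FPKM in Ep2. PBS1 lay below all other libraries, and Ep1 and Ep2 overlapped. It was called for PBS1 minus Ep2 (-0.54, SE 0.11, adjusted p = 0.00288).

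USP15 and USP4 are paralogues that both act on TGF-beta receptors, and their values differed in pattern. USP15 measured 21.5, 21.3 and 22.1 FPKM in PBS1, 20.6, 24.2 and 23.1 FPKM in Ep1 and 27.1, 29.7 and 29.2 FPKM in Ep2. Its log2 differences were -0.39 (SE 0.07, adjusted p = 0.00139) for PBS1 minus Ep2 and 0.33 (SE 0.07, adjusted p = 0.00881) for Ep2 minus Ep1. USP4 lay between 41.0 and 48.5 FPKM in all 9 libraries with overlapping groups, and differed by 0.01 (SE 0.07, adjusted p = 0.874) for PBS1 minus Ep2. For the third paralogue, USP11, the PBS1 columns held 34.3, 35.6 and 36.0 FPKM and the Ep2 libraries 33.7, 31.7 and 29.8 FPKM, and it was not called (adjusted p = 0.0617). The difference between paralogues was not tested.

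Among the USPs of endosomes and receptor traffic, USP8, which keeps the ESCRT-0 complex and the EGF receptor from degradation, measured 22.4, 22.1 and 23.0 FPKM in PBS1, 24.3, 24.7 and 29.9 FPKM in Ep1 and 28.1, 30.0 and 28.9 FPKM in Ep2. PBS1 lay below every other library, and the difference to Ep2 was -0.35 (SE 0.08, adjusted p = 0.00403). USP8 overlaps USP50, which was listed at 0. Its partner genes of the ESCRT-0 complex moved in different directions. STAM2 and STAM were lower in PBS1 than in Ep2 (-0.55 and -0.42), while HGS was higher (0.36, adjusted p = 0.00275). USP33, which promotes recycling of the beta2-adrenergic receptor, was called at -0.33 (SE 0.08, adjusted p = 0.00744), whereas its paralogue USP20 averaged 2.89, 2.18 and 2.52 FPKM in PBS1, Ep1 and Ep2 and was not called. USP32, which acts on RAB7, had the lowest adjusted p of the family for PBS1 minus Ep1 (-0.29, SE 0.07, adjusted p = 0.0876), with 16.3, 16.5 and 18.8 FPKM in PBS1 against 19.8, 21.4 and 22.4 FPKM in Ep1. USP2 was at 3.58 to 4.63 FPKM and not called, so 2 of these 5 fell and 0 rose for PBS1 minus Ep2, beside 24.2% and 25.4% of all tested genes.

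The USPs of mitochondrial and endoplasmic reticulum membranes included 2 of the 4 genes that were higher in PBS1 than in Ep2. Of the 3 genes in this list, 2 were called higher and 0 lower, beside 25.4% and 24.2% of all tested genes. USP35, a protein described at mitochondria, measured 2.30, 2.63 and 1.93 FPKM in PBS1, 2.40, 2.18 and 2.22 FPKM in Ep1 and 1.40, 1.59 and 1.45 FPKM in Ep2. All Ep2 values lay below all others. PBS1 minus Ep2 was 0.40 (SE 0.11, adjusted p = 0.00994), and Ep2 minus Ep1 was -0.40 (SE 0.11, adjusted p = 0.0205), a call lost without Ep1_1 or Ep2_3. USP35 had 117 to 214 fragments per library and overlaps GAB2 on the opposite strand, at a mean of 2.12 FPKM. USP38, its paralogue, went the other way, from 6.90 to 7.20 FPKM in PBS1 to 9.12 to 9.80 FPKM in Ep2 (-0.39, SE 0.08, adjusted p = 0.00217). USP19, which is anchored in the endoplasmic reticulum, stood at 30.2, 32.3 and 30.5 FPKM in the PBS1 columns and at 28.3, 26.4 and 26.1 FPKM in the Ep2 libraries. It was called at 0.20 (SE 0.07, adjusted p = 0.0285) and not without column PBS1, column PBS2, Ep2_2 or Ep2_3. USP30, which opposes mitophagy at the outer mitochondrial membrane, lay between 5.83 and 6.62 FPKM in all libraries, with a PBS1 minus Ep2 difference of 0.01 (SE 0.07, adjusted p = 0.956).

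USP18, the protease that removes the interferon-induced modifier ISG15, was low, at 2.08 to 3.20 FPKM and 54 to 85 fragments per library, and was called in no comparison (-0.21, SE 0.12, for PBS1 minus Ep2). USP25, described in innate immune signalling, measured 37.0, 35.6 and 36.6 FPKM in PBS1, 37.9, 44.4 and 47.3 FPKM in Ep1 and 51.9, 54.8 and 55.1 FPKM in Ep2. The 3 groups did not overlap, with Ep1_1 nearest to PBS1. Its differences were -0.56 (SE 0.08, adjusted p = 0.000504) for PBS1 minus Ep2 and 0.32 (SE 0.08, adjusted p = 0.0137) for Ep2 minus Ep1, the second call being lost without Ep2_3 (adjusted p = 0.0566). USP28, its paralogue, lay between 8.20 and 11.0 FPKM.

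In the nucleus, USP39, a splicing factor of the tri-snRNP that lacks protease activity, measured 47.5 to 57.3 FPKM. It was not called for PBS1 minus Ep2 (-0.14, SE 0.07, adjusted p = 0.0908), but was with length as a covariate (-0.19, adjusted p = 0.0213) and without Ep1_1. The nucleolar protease gene USP36 stood at 17.5, 15.7 and 15.9 FPKM in the PBS1 columns and at 12.9, 14.8 and 13.7 FPKM in the Ep2 libraries. Its call at 0.23 (SE 0.09, adjusted p = 0.0488) was lost without any PBS1 column, Ep1_2, Ep2_1 or Ep2_3, and under 4 further alternatives. Of the members whose activity is absent or uncertain, USP53, known at epithelial tight junctions, was called at -0.35 (SE 0.11, adjusted p = 0.0206) and lost without column PBS2, Ep2_2 or Ep2_3; USP54 lay between 5.37 and 6.32 FPKM and was not called. USP6NL, the member that is no protease, averaged 5.79, 6.13 and 6.89 FPKM in PBS1, Ep1 and Ep2 and was not called.

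The remaining members have no role list. USP24, a relative of USP9X, measured 24.5 to 25.6 FPKM in PBS1 and 29.2 to 30.2 FPKM in Ep2 (-0.25, SE 0.07, adjusted p = 0.0158, lost without column PBS2). USP31, USP40, USP43 and USP48 lay between 6.52 and 12.1 FPKM in all libraries, with PBS1 minus Ep2 differences of -0.03, -0.12, 0.06 and -0.15, and none was called. Calls were more frequent among well-expressed genes, over all tested genes as well as among the members. For PBS1 against Ep2, 13 of 18 genes above 20 FPKM were called, beside 63.6% of all tested genes of that level. It was 6 of 18 between 5 and 20 FPKM, beside 51.8%, and 3 of 10 below 5 FPKM, beside 28.6%.

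Other deubiquitinating families were set beside the USPs. Of 34 tested genes of the UCH, OTU, Josephin, JAMM and MINDY or ZUP1 families, 11 were lower and 7 higher in PBS1 than in Ep2 (52.9% called, beside 49.6% of all tested genes), with a median log2 difference of -0.07. Over all tested genes, 24.2% were called lower and 25.4% higher, which is also the background of the counts per family below. For Ep2 minus Ep1, 6 were higher and 5 lower, beside 13.4% and 14.0% of all (32.4% called, beside 27.4%). For PBS1 minus Ep1 limma called 0, beside 0.144% of all. UCHL5, a proteasome-bound UCH protease, averaged 23.8 FPKM in PBS1 and 32.1 FPKM in Ep2 (-0.41, adjusted p = 0.000488), whereas BAP1, which acts on H2A, averaged 25.5 and 19.6 FPKM (0.36). UCHL1 was listed at 0 in all libraries. Of the OTU family, 4 were higher and 2 lower of 14, with OTUB1, an inhibitor of ubiquitin-conjugating enzymes, at 0.37 and OTULIN, which cuts linear chains, at 0.34. In the JAMM family, COPS6 was higher (0.35) and MYSM1 lower (-0.30), with 1 of 10 higher and 3 lower. Josephin genes gave 1 higher (JOSD2, 0.45) and 1 lower (ATXN3, -0.49) of 3, and 3 of 4 MINDY and ZUP1 genes were lower, with ZUFSP at -0.45 and FAM63B at -0.41. Of 3 genes with the USP fold under other symbols, USPL1 (-0.34) and CYLD (-0.20) were lower, CYLD not so with length as a covariate (adjusted p = 0.123).

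The listed enzymes that activate ubiquitin for conjugation, UBA6 and UBA1, were called in opposite directions for PBS1 minus Ep2. Of all tested genes, 24.2% were called lower and 25.4% higher. UBA6, an activating enzyme, averaged 27.7 FPKM in PBS1 and 38.8 FPKM in Ep2 (-0.47, adjusted p = 0.00233). UBA1, the main activating enzyme, was higher in PBS1 than in Ep2 (0.16, adjusted p = 0.0225). Of 10 listed USP partners, 3 were higher and 3 lower, beside 25.4% and 24.2% of all tested genes; the largest differences were those of STAM2 and ENY2, an adaptor of USP22 in SAGA, at -0.55 and 0.49.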

How the data were processed

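RNA sequencing of 9 libraries was analysed from 1 deposited table of FPKM, made by the authors with 1 column per library, per the file headers. The tools listed in the submitters' processing notes are Bowtie 0.12.2, with mm8 (mouse) as the build, while the table lists ferret genes, so no coordinates are printed. For the counter, annotation, strand setting and shared reads the entry is: not given in the sources used here. Gene lengths are the deposited column. All 49 symbols were found in a reference gene table, and no sequence was used. The columns PBS1, PBS2 and PBS3 match the group titled PBS1 by stem only.

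Fragments per library were recovered from the smallest steps of FPKM times length, of which 100% of values above 0 were whole multiples (tolerance 0.02). Replicates differed by more than sampling noise (chi-square per degree of freedom 2.73 to 10.9), and none was counted as a duplicate.

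Limma 3.58.1 in R 4.3.3 was fitted to log2(FPKM + 1) of 11840 genes with an intensity trend and all 9 libraries. Length is 1 value per gene, so as a covariate it was taken out of each library across genes by a natural spline with 4 degrees of freedom. The script was tested on simulated data. Alternatives were pseudocounts, filters, normalizations, weights, voom on recovered fragments, fewer libraries and a replicate block. Members and lists were chosen with earlier results of these data known. Named members were the 5 largest called and non-overlapping differences each way per comparison, the 2 highest per role list and 10 fixed genes; members beyond these are given by range, call or value because all members are accounted for, and their naming followed sight of the values. From lists of other genes the 2 largest called differences for PBS1 minus Ep2 were named. G3BP1, WDR48, UBA1, STAM, HGS and the listed zeros were named after their values were seen. The list of ubiquitin and its activation is given only for the activating enzymes; another of its results is not reported here.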

Additional observations from a re-analysis of the deposited data

How the results depend on the processing

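Over the alternatives, the 22 calls of USP genes for PBS1 minus Ep2 stayed between 17 and 29 and the median between -0.20 and -0.11. The count was 17 without column PBS2 (38.2% of all genes called) and 29 with sample weights (59.2%). No called difference of a named gene changed sign. The F-test count of 21 ranged from 13 to 22 with single libraries left out, for which no F-test share of all genes is given. For Ep2 minus Ep1 the 8 calls became 13 with sample weights (37.9% of all genes called). With single libraries left out they became 5 (10.7%, without Ep2_3) to 13 (28.5%, without Ep1_3). With length as a covariate the 10 calls became 6 (13.0% to 16.2%) to 14 (30.0%, without Ep1_3). For PBS1 minus Ep1 the 0 calls became 15 with sample weights (30.3% of all genes called), 5 with voom (4.43%), 0 to 10 with single libraries left out (10 without Ep1_1, 16.02%) and 12 without both Ep1_1 and Ep2_1 (19.6%); with length as a covariate these were 13 with weights (25.7%), 0 to 7 and 10 (16.8%), so the calls over all genes moved as well. Medians moved by more than the spread between replicates in few cases. For PBS1 minus Ep1 the median was -0.15 with sample weights, and with length as a covariate -0.11 to -0.041 with single libraries left out and -0.11 without both libraries. For PBS1 minus Ep2 it was -0.11 with a pseudocount of 5, which shrinks differences by construction, and with length as a covariate -0.17 to -0.13 with single libraries left out and -0.17 without both. The cause was not tested for the other values. With a group reduced to 2 libraries, the spread is shared with the other groups.

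Titles of Ep1 and Ep2 share replicate numbers. Deviations of same-numbered libraries from their group means correlated at 0.15, 0.07 and 0.06 across genes, not all above 0.1, and Ep1_2 correlated no better with Ep2_2 than with Ep2_3, so the numbers were not taken as pairs. With the replicate number as a block, on the 6 Ep libraries, 8 USP genes were called for Ep2 minus Ep1. Of these, 7 were higher and 1 lower, beside 24.6% of all tested genes called in either direction. The median over the USP genes was 0.09. With block and length together 9 were called, beside 26.9% of all. No call of a named gene changed. The PBS columns carry no number of a single title and could not be blocked. The fits without both Ep1_1 and Ep2_1 and with block and length together were chosen after seeing the data. Precision is limited by 3 libraries per group and, for USP18, USP27X, USP12 and USP20, by few fragments.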
